A study of Mus musculus with 4 samples.

Results

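The laminin chain genes *Lama2*, *Lama4*, *Lama5*, *Lamb1*, *Lamb2* and *Lamc1*, the nidogen genes *Nid1* and *Nid2*, and the perlecan gene *Hspg2* were measured across myogenic states and the non-myogenic cells sorted with them. They were taken as a list of 9 gene symbols of the basement membrane, not by their values, and all 9 were found among the 27998 genes of the files. The cells were muscle stem cells (satellite cells) sorted from mouse hindlimb muscle as ITGA7+/VCAM+/Lin-, where Lin- means that cells with CD11b, SCA1, CD45 or CD31 on their surface were gated out. Each of the 4 strains gave 1 single-cell library from 2 pooled mice. B10 (C57/Bl10ScsSn, 15 weeks of age) was the control of *mdx* (C57BL/10ScSn-Dmdmdx, 11 weeks), and DBA (DBA/2, 13 weeks) was the control of D2-*mdx* (D2.B10-Dmdmdx, 14 weeks), both dystrophic strains carrying the same *Dmd* mutation in all cells of the body. With 1 library per strain there is no replicate check and no test. Strain, age, sort and library cannot be told apart, and the intervals below cover counting error only.

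Laminins are secreted as trimers of an α, a β and a γ chain, and they polymerise on the cell surface into the sheet from which a basement membrane is built. Nidogens and perlecan tie that sheet to the collagen IV network. In skeletal muscle the α2 chain, encoded by *Lama2*, is the main ligand of α-dystroglycan and of integrin α7β1, which connect the basement membrane to the cytoskeleton through dystrophin and through talin. Satellite cells lie between this membrane and the myofibre and add to it themselves. Loss of *LAMA2* causes a congenital muscular dystrophy.

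Between 3279 and 6313 cells per library passed the filters of 1000 to 5000 genes and at most 8% mitochondrial UMIs and were not predicted doublets. A UMI (unique molecular identifier) marks 1 captured RNA molecule. The cells held 37024800 to 52732731 UMIs per library, with a median of 6675 to 10434 UMIs per cell. Barcode sequences shared by a pair of libraries numbered 5 to 16. Values are UMIs summed over the cells of a class and divided by all their UMIs, per 1000000 UMIs (CPM), so that a sum cannot separate fewer cells of a kind from less RNA per cell. UMIs were counted at the 3′ ends of transcripts, and levels are compared between libraries and classes, not between genes. Myogenic cells made up 96.5% of B10, 76.3% of *mdx*, 82.3% of DBA and 72.6% of D2-*mdx* cells. They carried all 6 stem cell markers (*Pax7*, *Myf5*, *Calcr*, *Chodl*, *Cdh15* and *Des*), at a sum of 2509 to 3650.0 CPM. Such a sum over many cells does not show that each was a stem cell. Myogenic cells also took in cycling and differentiating cells. Muscle stem cell-like cells were 4118 of 4581 kept cells in B10 and 2516 of 3279 in DBA. They were 3175 of 6313 in *mdx* and 2894 of 5756 in D2-*mdx*. Kept cells that were not myogenic carried markers of pericytes, vascular smooth muscle, glia, Schwann cells, endothelium, white blood cells or tenocytes. *Dmd* in myogenic cells stood at 324 CPM in B10 against 119.6 in *mdx*, and at 288 CPM in DBA against 93.8 in D2-*mdx*.

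In myogenic cells the β1 and γ1 chains stood apart in opposite directions. *Lamb1* was several-fold higher in *mdx* than in B10 and higher in D2-*mdx* than in DBA, whereas *Lamc1*, *Lamb2* and *Nid1* were lower in each dystrophic library than in its control. *Lama2* and *Hspg2* differed by less than 1.5-fold in either pair. At least 2-fold differences between *mdx* and B10 were found for 2 of 9 members (*Lamb1* and *Lama4*, both higher), and none was 2-fold lower. Among all genes that reached 10 CPM in either library, 4.67% were 2-fold higher and 5.18% were 2-fold lower. Between D2-*mdx* and DBA, *Lama4* was 2-fold higher and *Nid1* 2-fold lower, against 5.89% and 5.92% of all genes. *Lama4* stayed under 10 CPM in all 4 libraries and so lies outside that background. Of the members with at least 10 CPM, 1 of 8 was past 2-fold in the first pair and 1 of 6 in the second. The median log2 ratio of the 9 members was 0.24 for *mdx* over B10 and -0.12 for D2-*mdx* over DBA. All genes tested, which had to reach 10 CPM, had medians of -0.03 and -0.07. The 9 members were not held to that minimum, so these medians are not like for like. For the 6 members that passed it in both pairs, the medians were -0.15 and -0.25.

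**Figure D1:**
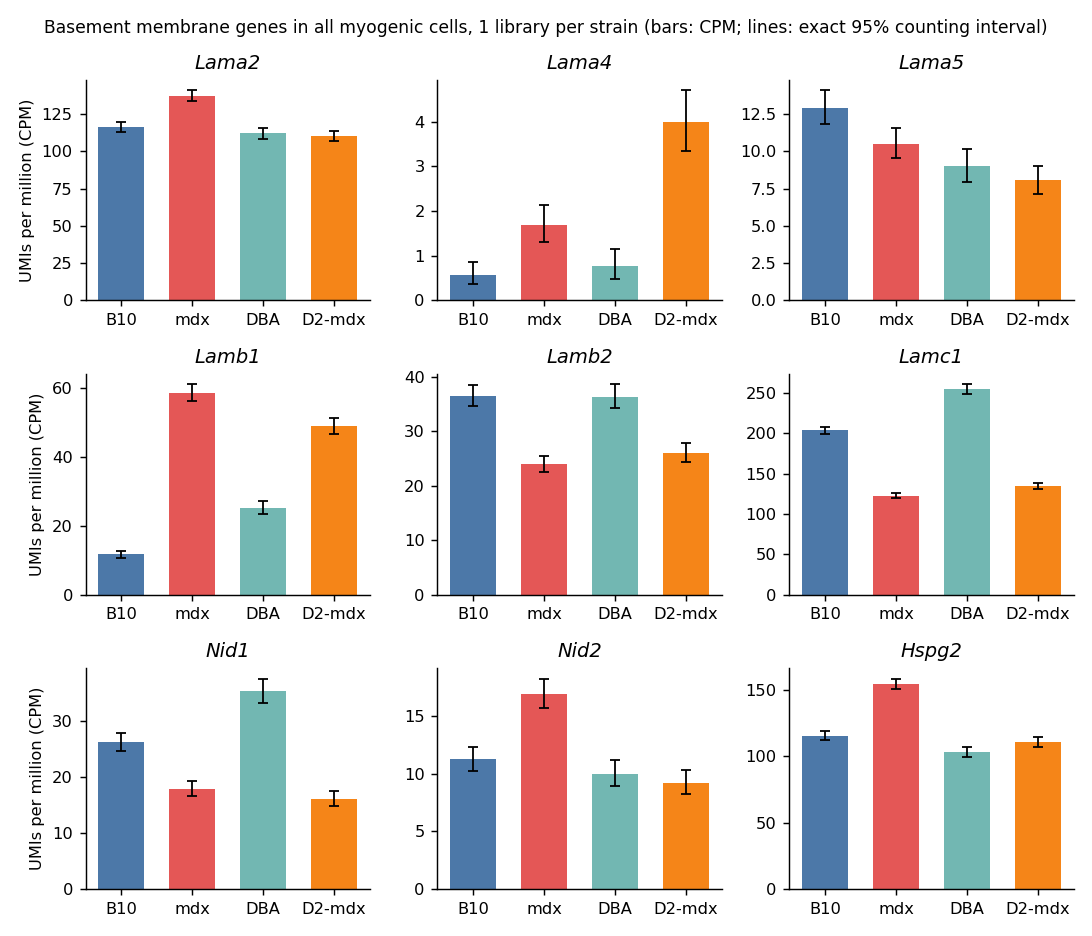
UMIs as CPM (y axis from 0, a scale of its own for each gene) of the 9 genes in all myogenic cells of each library, with exact 95% Poisson intervals as lines. *Lamb1* stood at 58.6 CPM in *mdx* and 49.0 in D2-*mdx* against 11.7 in B10 and 25.2 in DBA, while the control bars of *Lamb2*, *Lamc1* and *Nid1* stood above those of both dystrophic libraries.

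*Lamb1* (ENSMUSG00000002900, chr12:31265234-31329644, plus strand, GRCm38) encodes the β1 chain. Its level in myogenic cells was 11.7 CPM in B10 (95% Poisson interval 10.7 to 12.8) against 58.6 in *mdx* (56.3 to 61.0), and 25.2 in DBA (23.5 to 27.1) against 49.0 in D2-*mdx* (46.7 to 51.3). No intervals overlapped, and the control libraries differed from each other by a larger ratio than the dystrophic ones did. The log2 ratio was 2.33 for *mdx* over B10 (2.18 to 2.47) while D2-*mdx* over DBA gave 0.96 (0.83 to 1.08). With every cell thinned to 3000 UMIs, 3.24%, 12.3%, 7.003% and 10.8% of B10, *mdx*, DBA and D2-*mdx* myogenic cells held a *Lamb1* UMI. Unthinned, these shares were 8.31%, 27.8%, 21.0% and 24.2%, at median depths of 8416, 6849, 10289 and 6487 UMIs. White blood cell-like cells, which should lack most of these genes, held a *Lamb1* UMI in 0.901% of 111 cells in *mdx* and 4.38% of 160 in D2-*mdx* after thinning, at unthinned median depths of 8268 and 10312 UMIs. In DBA that share was 8.33% of only 24 cells (1.03 to 27.0%), so the DBA share of 7.003% could not be told from background by this measure.

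*Lamb2* (ENSMUSG00000052911, chr9:108479736-108490530, plus strand) encodes β2, the chain of the laminin at the neuromuscular junction and in vessels. It stood at 36.6 CPM in B10 (34.7 to 38.5) against 23.98 in *mdx* (22.5 to 25.5), and 36.4 in DBA (34.3 to 38.6) against 26.1 in D2-*mdx* (24.4 to 27.9). The intervals of the control libraries overlapped each other, as did those of the dystrophic libraries, and the 2 kinds were apart. Log2 ratios were -0.61 (-0.73 to -0.49) and -0.48 (-0.61 to -0.35). Both ratios were smaller in the cell sets that follow, but not within every state. They were -0.23 (-0.37 to -0.10) and -0.11 (-0.25 to 0.04) among muscle stem cell-like (MuSC-like) cells alone, -0.26 and -0.16 with state shares held at the control's, and 0.03 and 0.08 in the MuSC-like cluster with low immediate-early genes, where neither dystrophic library was lower. Over all kept cells, with cell types not separated, the *mdx* ratio was 0.03. *Lamb1* made up 24.2% of the summed *Lamb1* and *Lamb2* UMIs in B10 myogenic cells (22.3 to 26.2%, exact binomial), against 71.0% in *mdx* (69.4 to 72.5%), and 40.9% in DBA (38.7 to 43.2%) against 65.2% in D2-*mdx* (63.4 to 67.1%). This share compares libraries, not the amounts of the 2 proteins.

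*Lamc1* (ENSMUSG00000026478, chr1:153218922-153332786, minus strand) encodes γ1, the γ chain of nearly all muscle laminins. Thinned to 3000 UMIs, 42.9% of B10, 29.9% of *mdx*, 51.3% of DBA and 34.3% of D2-*mdx* myogenic cells held a *Lamc1* UMI. The white blood cell-like shares were 11.7% in *mdx*, 9.38% in D2-*mdx* and 33.3% of the 24 cells in DBA (15.6 to 55.3%). Its level was 204 CPM in B10 (199.5 to 208) against 123 in *mdx* (119.5 to 126), and 255 in DBA (249 to 260.5) against 135 in D2-*mdx* (131 to 139). Both dystrophic libraries lay below both controls with no overlap. Log2 ratios were -0.73 (-0.78 to -0.68) and -0.92 (-0.97 to -0.86) in the *mdx* and D2-*mdx* pairs.

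*Lama2* (ENSMUSG00000019899, chr10:26980036-27619758, minus strand) stood at 116 CPM in B10 (113 to 119.6) against 137 in *mdx* (134 to 141), and 112 in DBA (108 to 116) against 110.4 in D2-*mdx* (107 to 114). Only the *mdx* interval lay apart from the others. The log2 ratio was 0.24 for *mdx* over B10 (0.18 to 0.30) while D2-*mdx* over DBA gave -0.02 (-0.09 to 0.04), and among MuSC-like cells alone it was 0.42 and 0.27. After thinning, 27.8 to 33.0% of myogenic cells held a *Lama2* UMI, against 8.11% and 5.63% of white blood cell-like cells in *mdx* and D2-*mdx*. Unthinned, white blood cell-like cells had *Lama2* at 25.4 to 75.5 CPM over *mdx*, DBA and D2-*mdx*, with only 24 such cells in DBA. Opposite-strand genes overlap *Lama2* (4930579H20Rik) and *Nid2* (*Rtraf*), and none of the 9 genes overlaps another on its own strand.

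*Lama4* and *Lama5* encode the α4 and α5 chains, best known from the basement membranes of vessels and nerve. *Lama4* (ENSMUSG00000019846, chr10:38965515-39110188, plus strand) had 23, 68, 23 and 139 UMIs in the myogenic cells of B10, *mdx*, DBA and D2-*mdx*. These came to 0.577 CPM (0.366 to 0.865), 1.68 (1.31 to 2.14), 0.764 (0.484 to 1.15) and 3.98 (3.35 to 4.70), and the log2 ratios were 1.55 (0.85 to 2.30) and 2.38 (1.74 to 3.09). The first was 0.48 in the MuSC-like cluster with low immediate-early genes, and the second 0.35 over all kept cells. In D2-*mdx* the thinned share of myogenic cells with a *Lama4* UMI was 1.03% (0.746 to 1.38%). This share could not be told from the 1.25% of white blood cell-like cells, which rests on 2 of 160 cells (0.152 to 4.44%). In *mdx* it was 0.519% of myogenic cells against 0 of 111 white blood cell-like cells, a count that allows up to 3.27%. Each dystrophic library also held more pericyte-like, glial cell-like and endothelial cell-like cells, where the gene was abundant, than its control. This order did not hold across all libraries. D2-*mdx* held fewer glial cell-like (228 against 352) and endothelial cell-like cells (90 against 253) than *mdx*. Pericyte-like cells were 14.8% of DBA and 9.66% of *mdx* cells. The part of free RNA in these ratios was not tested.

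*Lama5* (ENSMUSG00000015647, chr2:180176373-180225859, minus strand) was at 12.9 CPM in B10 (11.8 to 14.1) against 10.5 in *mdx* (9.53 to 11.6), and 8.996 in DBA (7.96 to 10.1) against 8.05 in D2-*mdx* (7.14 to 9.05). The control was the higher library in each pair, but the DBA and D2-*mdx* intervals overlapped, and the log2 ratios were -0.30 (-0.49 to -0.11) and -0.16 (-0.41 to 0.09). Among MuSC-like cells alone the difference was wider, at -0.84 and -0.60.

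Of the linkers, *Nid1* (ENSMUSG00000005397, chr13:13437551-13512269, plus strand) encodes nidogen-1, which binds the γ1 chain and collagen IV. It was at 26.2 CPM in B10 (24.6 to 27.8) against 17.9 in *mdx* (16.6 to 19.3), and 35.4 in DBA (33.3 to 37.5) against 16.1 in D2-*mdx* (14.8 to 17.5). The dystrophic intervals overlapped each other and lay below those of both controls. Log2 ratios were -0.55 (-0.69 to -0.41) and -1.13 (-1.28 to -0.98). In *mdx* the direction held for myogenic cells and not for the library as a whole, since over all kept cells the ratio was 0.63, and -0.33 in D2-*mdx*.

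*Nid2* (ENSMUSG00000021806, chr14:19751265-19811787, plus strand), which encodes the related nidogen-2, stood at 11.3 CPM in B10 (10.2 to 12.4) against 16.9 in *mdx* (15.7 to 18.2), and 9.99 in DBA (8.90 to 11.2) against 9.23 in D2-*mdx* (8.25 to 10.3). The *mdx* library alone was apart, with log2 ratios of 0.59 (0.41 to 0.76) and -0.12 (-0.35 to 0.12). *Nid1* gave 70.0% of the summed UMIs of both nidogens in B10 against 51.4% in *mdx*, and 77.96% in DBA against 63.6% in D2-*mdx*, and the 4 exact intervals did not overlap. *Hspg2* (ENSMUSG00000028763, chr4:137468769-137570630, plus strand) encodes perlecan, a large heparan sulfate proteoglycan that also binds α-dystroglycan. It was at 115 CPM in B10 (112 to 119) against 155 in *mdx* (151 to 159), and 103 in DBA (99.7 to 107) against 111 in D2-*mdx* (107 to 114), with log2 ratios of 0.42 (0.37 to 0.48) and 0.10 (0.03 to 0.17).

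The stretches upstream of *Lamb1*, which was 2-fold higher in *mdx*, and of *Nid1*, which was 2-fold lower in D2-*mdx*, are given from RefSeq (GRCm38.p6), 5′ to 3′ on the plus strand. They cover chr12:31265043-31265233 and chr13:13437352-13437550 and end at the base before the annotated gene start. Capitals mark GC boxes (GGGCGG, or CCGCCC on the other strand) and CCAAT boxes (CCAAT, or ATTGG on the other strand), which did not overlap.
Lamb1: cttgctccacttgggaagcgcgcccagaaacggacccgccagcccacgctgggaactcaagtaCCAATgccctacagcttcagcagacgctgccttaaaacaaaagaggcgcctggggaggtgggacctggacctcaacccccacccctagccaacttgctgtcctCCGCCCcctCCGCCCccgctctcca
Nid1: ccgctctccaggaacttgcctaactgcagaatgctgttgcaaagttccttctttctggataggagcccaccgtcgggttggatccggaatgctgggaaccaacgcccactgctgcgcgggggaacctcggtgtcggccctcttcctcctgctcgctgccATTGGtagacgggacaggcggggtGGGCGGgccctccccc
*Lamb1* held 2 GC boxes and 1 CCAAT box, and *Nid1* held 1 of each. Promoter entries were matched for 6 of the 9 members. In windows of 250 bases, 4 of these 6 held a GC box (*Lama5*, *Hspg2*, *Lamb1* and *Nid1*) against 32.7% of 32851 promoters, and 2 held CCAAT (*Lamb1* and *Nid1*) against 33.9%. None held TGANTCA, the AP-1 site with N for any base, or the E-box CAGCTG or TATAAA, which were found in 6.75%, 13.0% and 12.4% of promoters on either strand. The GC and CCAAT boxes thus stood upstream of a gene that was higher in *mdx* and of one that was lower in D2-*mdx*.

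**Figure D2:**
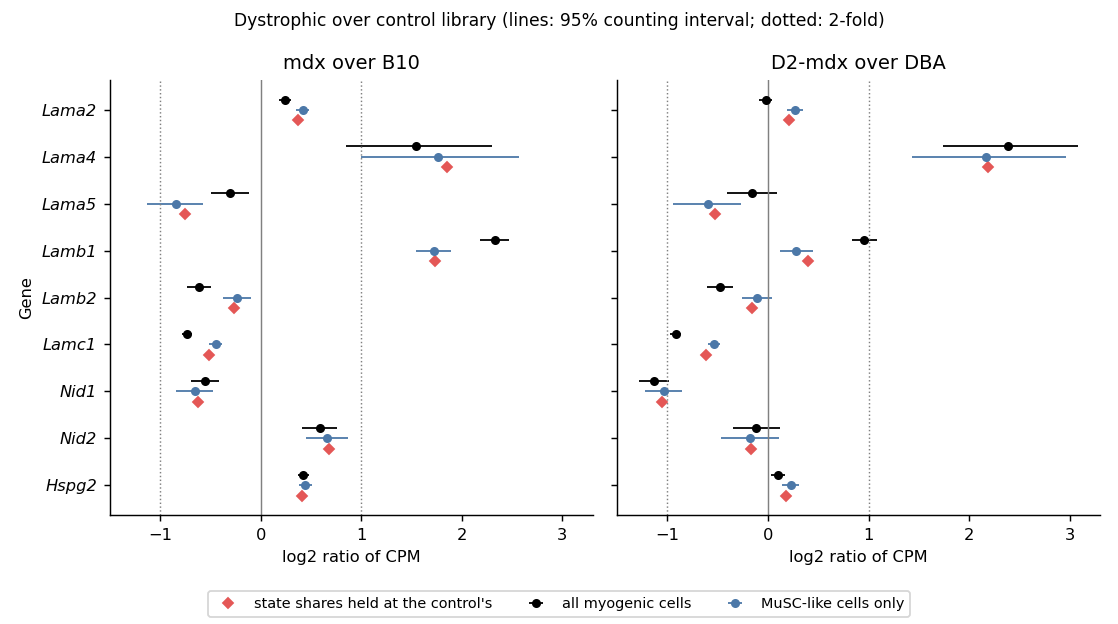
Log2 ratio of CPM (x axis) of each gene, dystrophic over control library, in all myogenic cells (black), in MuSC-like cells (blue) and with state shares held at the control's (red diamonds), with 95% counting intervals for the first 2 and 2-fold as dotted lines. *Lamb1* kept a ratio of 1.73 in *mdx* with state shares held and one of 0.40 in D2-*mdx*, while *Nid1* stayed at -0.63 and -1.06.

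The myogenic cells fell into states named from marker genes, with the 9 members left out of the clustering. MuSC-like cells made up 93.2% of B10 and DBA myogenic cells but 65.9% of *mdx* and 69.2% of D2-*mdx*. DMD-enriched-like cells, marked by genes such as *Postn* and *Col1a1*, made up 0.81% of B10 and 1.52% of DBA against 19.0% of *mdx* and 13.6% of D2-*mdx*. The few control cells placed with that state (36 and 41) carried its markers at 874 CPM in each control, against 4911 and 3384 CPM in the *mdx* and D2-*mdx* cells, so the states are described from the dystrophic libraries. The sum of the same 7 markers was higher still in differentiating myocyte-like cells, at 6966 CPM in *mdx* and 5397 in D2-*mdx*. The sum therefore does not single out the DMD-enriched-like state. Of the single markers, *Postn* (19.1-fold) and *Col1a2* (8.49-fold over all other myogenic cells) were among the 10 leading genes of that cluster, and the others were not. Cycling progenitor-like, differentiating myocyte-like and immunomyoblast-like cells made up the rest.

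*Lamb1* was higher in DMD-enriched-like than in MuSC-like cells of both dystrophic libraries. In *mdx* it was at 109 CPM (103.5 to 115) against 37.9 (35.2 to 40.7), and in D2-*mdx* at 113 (105 to 121) against 31.1 (28.6 to 33.8). Cycling progenitor-like cells had 29.1 and 32.7 CPM and differentiating myocyte-like cells 43.0 and 39.4. The intervals of the DMD-enriched-like state overlapped none of these. Immunomyoblast-like cells were at 51.0 CPM in *mdx* (35.7 to 70.6), and at 91.7 in D2-*mdx* (58.7 to 136), where 24 UMIs in 30 cells gave an interval that overlapped the DMD-enriched-like one. *Lamb2* was lower in DMD-enriched-like than in MuSC-like cells, with 17.7 CPM (15.4 to 20.3) against 31.5 (29.1 to 34.1) in *mdx*, and 19.9 (16.7 to 23.4) against 34.3 (31.6 to 37.1) in D2-*mdx*. It was also low in cycling cells, at 15.3 CPM in *mdx* (11.9 to 19.3) and with an interval of 13.2 to 19.3 in D2-*mdx*, and in differentiating cells, at 13.4 and 13.3. Some of the few control cells were higher, at 46.4 CPM in DMD-enriched-like cells of B10 (18 UMIs) and 31.7 in differentiating cells of DBA (31 UMIs). These 2 gaps were wider than those of all myogenic cells, which was not so in every state. In differentiating cells of B10 *Lamb2* had 14 of 891675 UMIs, against 48 of 3583687 in *mdx*, too few to read a gap. *Lamb1* gave 86.0% of the β chain UMIs in DMD-enriched-like cells of *mdx* (84.2 to 87.8%) and 85.0% in D2-*mdx* (82.6 to 87.2%), against 54.6% (51.9 to 57.3%) and 47.6% (44.7 to 50.5%) in MuSC-like cells. In the immunomyoblast-like cells of D2-*mdx* the share was 72.7% (54.5 to 86.7%), which overlapped that of the DMD-enriched-like cells. The MuSC-like cells of the controls were at 23.7% in B10 (21.7 to 25.7%) and 40.9% in DBA (38.6 to 43.3%), below their dystrophic counterparts with no overlap.

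**Figure D3:**
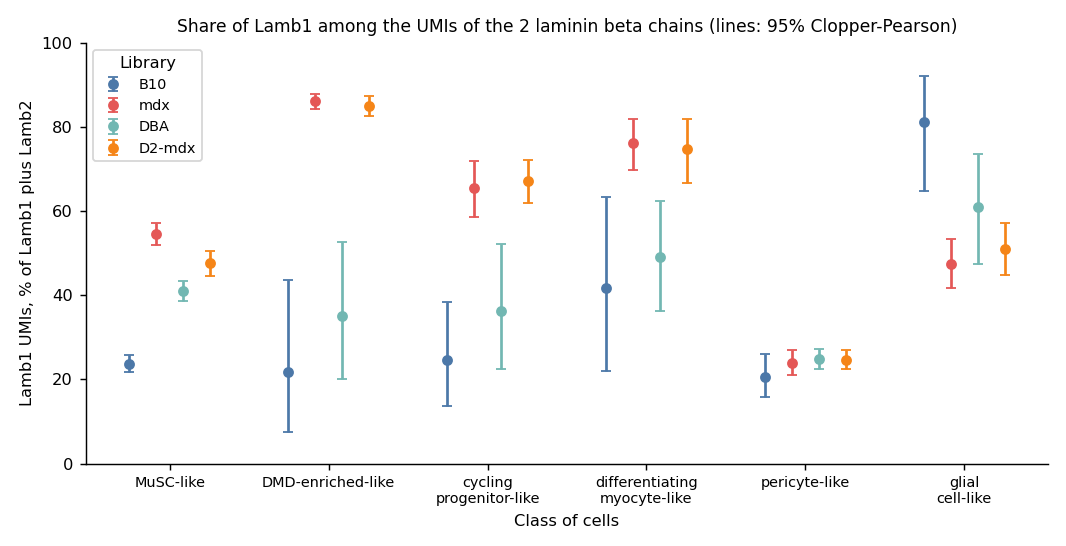
*Lamb1* UMIs as a percentage of *Lamb1* plus *Lamb2* UMIs (y axis) by class of cells (x axis) and library (colour), with exact 95% binomial intervals. The dystrophic libraries reached 86.0% and 85.0% in DMD-enriched-like cells, while all 4 libraries lay between 20.6% and 24.9% in pericyte-like cells.

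*Lama2* and *Lamc1* were lower in cycling and differentiating cells than in MuSC-like cells of the dystrophic libraries. *Lama2* was at 154 and 135 CPM in the MuSC-like cells of *mdx* and D2-*mdx*, at 149.5 and 131 in DMD-enriched-like cells, at 76.8 and 39.0 in cycling cells and at 75.6 and 73.2 in differentiating cells. *Lamc1* was at 147 and 173 CPM in MuSC-like cells, at 108 and 118 in DMD-enriched-like cells, at 88.2 and 61.4 in cycling cells and at 86.0 and 108.5 in differentiating cells. Both were thus higher in MuSC-like than in cycling or differentiating cells with no overlap of intervals in either dystrophic library. The cycling cells of the controls did not share this order. They carried the cycling markers at 438 CPM (B10, 84 cells) and 1077 CPM (DBA, 64 cells), beside 643 and 1016 in *mdx* and D2-*mdx*. Other markers set these cells apart. Differentiating myocyte markers were at 11.5 and 10.8 CPM in the cycling cells of B10 and DBA, against 435 and 602 in those of *mdx* and D2-*mdx*. Immediate-early genes were at 16290 and 11120 CPM, against 5550 and 3637. *Lama2* was at 130.2 CPM in the cycling cells of B10 (111 to 152) against 115 in its MuSC-like cells, and at 105 in those of DBA (86.4 to 127) against 112. *Lamc1* was at 227 (201 to 255) against 200.4 CPM in B10 and at 235 (206 to 267) against 250.1 in DBA. The control cells placed with the differentiating state, which carried its markers at 431 CPM (B10) and 576 CPM (DBA) where the *mdx* and D2-*mdx* cells had 5296 and 4043, had *Lamc1* at 332 and 399 CPM.

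*Nid2* was at 18.4 CPM in MuSC-like, 19.6 in DMD-enriched-like, 10.3 in cycling and 6.98 in differentiating cells of *mdx*, and at 9.02, 14.2, 7.001 and 2.66 in those of D2-*mdx*. In D2-*mdx* the cycling interval (5.18 to 9.26) overlapped the MuSC-like one (7.69 to 10.5). *Nid1* was at 17 and 17.4 CPM in MuSC-like, 22.9 and 19.9 in DMD-enriched-like and 7.81 and 7.21 in differentiating cells. *Hspg2* ranged from 123 to 174.5 CPM over these states in *mdx* and from 76.4 to 131 in D2-*mdx*. *Lama5* was higher in DMD-enriched-like than in MuSC-like cells, at 15.0 against 7.22 CPM in *mdx* and 11.9 against 5.90 in D2-*mdx*, and in differentiating cells it was at 16.5 and 7.96. In cycling cells *Nid1* was at 15.9 CPM in *mdx* and 12.0 in D2-*mdx*. Of these states both nidogen genes read lowest in differentiating cells, where *Nid2* in D2-*mdx* rests on 7 UMIs. Only for *Nid1* in *mdx* did the differentiating interval lie apart from the cycling one. The 2 intervals overlapped for *Nid1* in D2-*mdx* and for *Nid2* in both dystrophic libraries. *Lama5*, *Lamb1*, *Nid1* and *Nid2* were all higher in DMD-enriched-like than in MuSC-like cells of both dystrophic libraries. The intervals overlapped for *Nid1* in D2-*mdx* and for *Nid2* in *mdx*. Set against the MuSC-like cluster with low immediate-early genes alone, not all of them stayed higher. *Nid2* in *mdx* was lower, at 19.6 against 26.4 CPM with overlapping intervals, and *Nid1* in D2-*mdx* was alike, at 19.9 against 19.3. *Nid1* in *mdx* was at 22.9 against 19.1 CPM, and *Nid2* in D2-*mdx* at 14.2 against 9.80. *Lama5* stayed higher in both, and *Lamb1* was at 109 against 71.9 CPM in *mdx* and 113 against 55.8 in D2-*mdx*.

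Weighting each dystrophic library by its control's state shares left the sign of the ratio in 9 of 9 members for *mdx* and 8 of 9 for D2-*mdx*, where *Lama2* went from -0.02 to 0.21. The *Lamb1* ratio went from 2.33 to 1.73 in *mdx* and from 0.96 to 0.40 in D2-*mdx*. Among MuSC-like cells alone it was 1.72 and 0.28, and among those of the MuSC-like cluster with low immediate-early genes (cluster 1, 6273 to 10180 CPM summed, against 28670 to 40900 in the larger MuSC-like cluster) it was 2.03 and 0.57. *Nid1* was little moved, at -0.63 and -1.06 with shares held, and *Lamc1* came to -0.51 and -0.62. In MuSC-like cells 2 members (*Lama4* and *Lamb1*) were past 2-fold higher in *mdx* and none lower, against 2.94% and 3.45% of all genes. In D2-*mdx* *Lama4* was past 2-fold higher, against 3.7%, and *Nid1* past 2-fold lower, against 3.59%. *Lama4* stayed under 10 CPM here too and so lies outside these shares. Of the members with at least 10 CPM in MuSC-like cells, 1 of 8 was past 2-fold in *mdx* and 1 of 7 in D2-*mdx*.

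Markers of the other cell types were also counted in the myogenic cells. The summed level of 6 markers per type ranged over B10, *mdx*, DBA and D2-*mdx* as 21.9, 35.7, 34.2 and 60.9 CPM for pericytes, and as 0.727, 12.4, 4.95 and 39.8 CPM for white blood cells. Vascular smooth muscle markers were at 222, 467, 309.7 and 557 CPM and endothelial markers at 49.9, 20.8, 50.8 and 20.5 CPM. Mature myofibre markers were at 29.0, 86.4, 24.1 and 215 CPM, and among MuSC-like cells alone at 29.2, 65.02, 24.3 and 140.2. Fibro-adipogenic progenitor markers were at 1958, 1737, 2498 and 1852 CPM, tenocyte markers at 56.7, 26.4, 23.2 and 33.4, glial markers at 27.0, 25.2, 18.0 and 31.7, and Schwann cell markers at 18.9, 23.6, 21.8 and 20.9. Pericyte, smooth muscle, white blood cell and myofibre markers were thus higher in each dystrophic library than in its control, endothelial and fibro-adipogenic progenitor markers were lower, and the other 3 lists differed in sign between the pairs. Their part in the ratios was not tested. Some of these markers had UMIs in many MuSC-like cells, *Col3a1* in 95.9%, *Gsn* in 93.2%, *Dpt* in 89.8%, *Acta2* in 53.3% and *Tek* in 23.0%. The sums of the fibro-adipogenic progenitor, smooth muscle and endothelial lists, which hold them, therefore do not single out RNA of those types. All markers of these lists had UMIs in each library except *Rergl* of smooth muscle in B10 and DBA, *Ptprc* of white blood cells in B10 and *Gfap* of glia in DBA. In myogenic cells with 0 UMIs of the 31 type markers found in under 2% of MuSC-like cells, *Lamb1* ratios were 2.33 and 0.86 and *Nid1* ratios -0.58 and -1.24, in 2258 to 4084 cells per library. That limit was chosen after the data were seen.

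Outside the myogenic cells, the α chains divided the classes. The classes below had at least 20 cells in a library, and levels are means over such libraries with their range. *Lama4* was at 200.1 CPM in glial cell-like cells (149.5 to 262), 178 in tenocyte-like (153 to 203), 161 in endothelial cell-like (159.5 to 162), 134 in Schwann cell-like (121 to 147) and 103 in pericyte-like cells (79.3 to 136). Vascular smooth muscle-like cells, present with 59 cells in *mdx* alone, had 50.1 CPM, and no myogenic state and not the white blood cell-like class exceeded 1.97 CPM on average. The ranges of neighbours in this order overlapped except between endothelial and Schwann cell-like cells and on either side of vascular smooth muscle. *Lama2* was at 221 CPM in tenocyte-like cells, at 129 in MuSC-like cells (112 to 154) and at 82.2 in glial cell-like cells (56.5 to 113), but at 42.7 in Schwann cell-like, 16.2 in pericyte-like (5.84 to 26.1), 9.70 in vascular smooth muscle-like and 8.48 in endothelial cell-like cells (8.17 to 8.79). White blood cell-like cells had a mean of 46.0 CPM of *Lama2* (25.4 to 75.5). The means of Schwann cell-like, pericyte-like, vascular smooth muscle-like and endothelial cell-like cells were all below it. These levels could not be told from background by this measure, and the part of free RNA in them was not tested. *Lama5* was at 66.3 CPM in vascular smooth muscle-like, 37.2 in endothelial cell-like (27.6 to 46.8) and 36.3 in pericyte-like cells (25.4 to 55.2), and at most 12.5 in any other class.

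**Figure D4:**
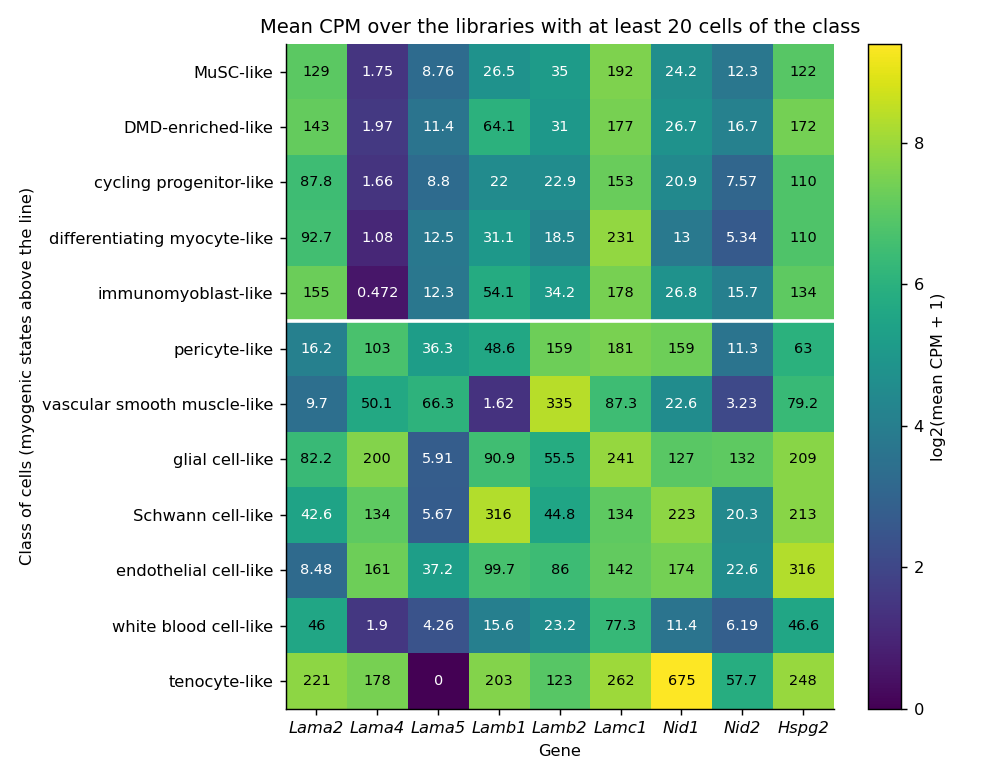
Mean CPM over the libraries with at least 20 cells of a class (number in each cell), coloured by log2(mean CPM + 1), for 5 myogenic states above the white line and 7 non-myogenic classes below it (y axis) and 9 genes (x axis). *Lama4* reads 1.97 or less in every myogenic state and 50.1 to 200.1 in all non-myogenic classes but white blood cell-like.

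The β chains divided the same classes differently. *Lamb1* was at 316 CPM in Schwann cell-like cells (244 to 389), 203 in tenocyte-like (164 to 242), 99.7 in endothelial cell-like (95.4 to 104), 90.9 in glial cell-like (54.8 to 145) and 48.6 in pericyte-like cells (41.6 to 57.3). The ranges of the first 3 did not overlap, and each later one overlapped the next. The counting intervals of the lowest Schwann cell-like value (191 to 306, D2-*mdx*) and the highest tenocyte-like value (192 to 302, *mdx*) did overlap. In vascular smooth muscle-like cells it came from 1 UMI, at 1.62 CPM (0.041 to 9.01). *Lamb2* was at 335 CPM in those cells (291 to 383.5, counting interval), at 159 in pericyte-like (132 to 195), 123 in tenocyte-like and 86.0 in endothelial cell-like cells (75.3 to 96.7). Of these, only the pericyte-like and tenocyte-like ranges overlapped. *Lamb1* gave 0.481% of the β chain UMIs in vascular smooth muscle-like cells of *mdx* and 90.8% in its Schwann cell-like cells.

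*Lamc1* was spread over all classes, from 262 CPM in tenocyte-like and 241 in glial cell-like (178 to 309) to 77.3 in white blood cell-like cells, where the DBA value of 151 rests on 24 cells. *Nid1* was at 675 CPM in tenocyte-like cells (574 to 775), 223 in Schwann cell-like (220.3 to 226), 174 in endothelial cell-like, 159 in pericyte-like and 127 in glial cell-like cells, and at most 26.8 in a myogenic state. The ranges overlapped from endothelial cell-like cells on, and the tenocyte-like and Schwann cell-like ranges stood apart. *Nid2* was at 132 CPM in glial cell-like cells (93.4 to 169) and 57.7 in tenocyte-like cells, and at most 22.7 in any other class. *Nid1* gave 92.4 to 94.3% of the nidogen UMIs in pericyte-like cells and 41.7 to 53.1% in glial cell-like cells of the 4 libraries. *Hspg2* was at 316 CPM in endothelial cell-like cells (304 to 328), 247.5 in tenocyte-like (133 to 362), 213 in Schwann cell-like and 209 in glial cell-like cells (155 to 280), and these ranges overlapped from each class to the next. Tenocyte-like cells numbered 29 in *mdx* and 49 in D2-*mdx*, and their 10 leading genes held 3 tenocyte markers (*Thbs4*, *Fmod* and *Tnmd*) and 2 of fibro-adipogenic progenitors (*Pi16* and *Dcn*). They carried all 6 fibro-adipogenic progenitor markers, at a sum of 24720 CPM in *mdx* and 21340 in D2-*mdx*, above the 9238 and 6408 CPM of the tenocyte markers. The levels given for this class, which ranked first for *Lama2*, *Lamc1* and *Nid1*, are therefore those of cells with markers of both types.

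The cells that held a gene's UMIs differed between libraries, as did the number of cells in each class. Myogenic cells held 91.8 to 98.6% of *Lama2* UMIs in each library, but only 2.40 to 10.5% of *Lama4* UMIs. Their share of *Nid1* UMIs was 78.5% in B10 against 27.7% in *mdx*, and 46.2% in DBA against 23.6% in D2-*mdx*, and that of *Lamb2* was 82.9%, 42.3%, 49.2% and 39.5%. *Lamb1* varied less, from 64.0 to 76.8%. The largest non-myogenic holder of *Lama4* was the pericyte-like class in B10 (46.1%), DBA (80.2%) and D2-*mdx* (48.1%), and the glial cell-like class in *mdx* (41.9%).

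**Figure D5:**
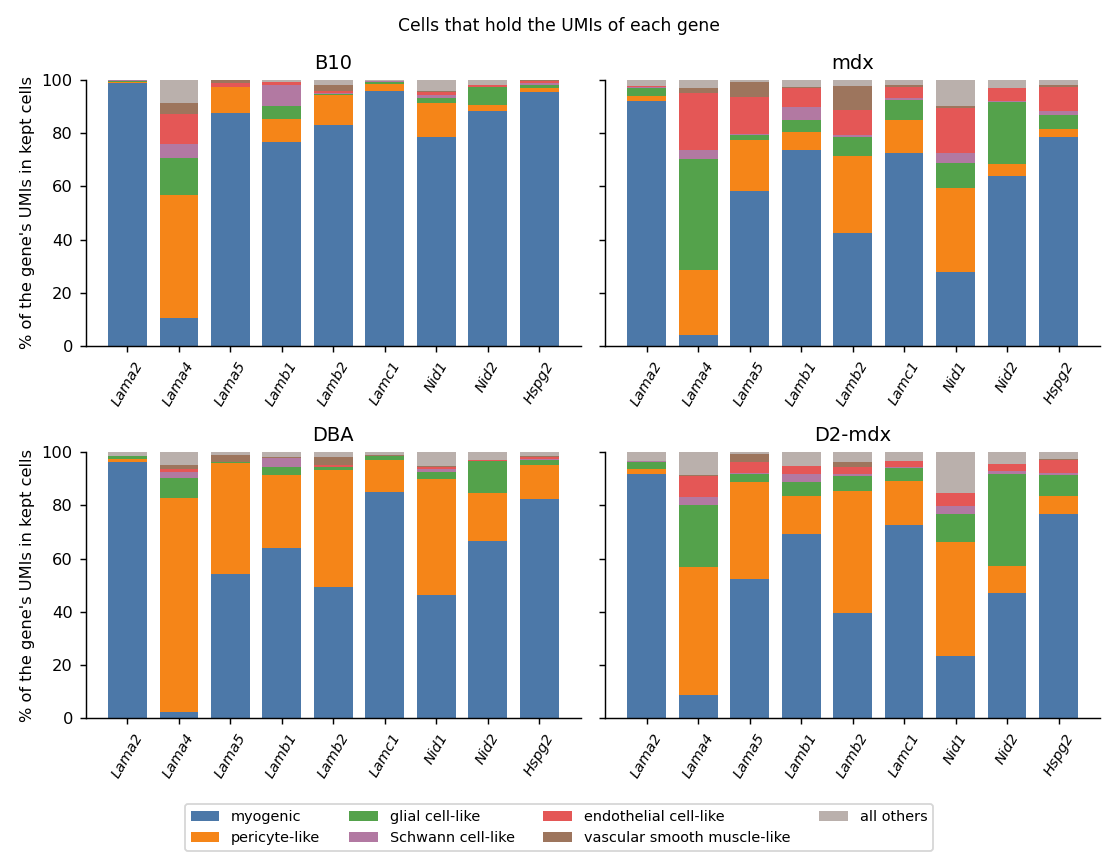
Percentage of each gene's UMIs in kept cells (y axis) held by each class (colour), for the 9 genes (x axis) in the 4 libraries (panels). The blue myogenic part is 91.8 to 98.6% for *Lama2* and 2.40 to 10.5% for *Lama4*, and for *Nid1* it is 78.5% in B10 and 23.6% in D2-*mdx*.

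In pericyte-like cells, which had 96 cells in B10 and 485 to 986 in the other libraries, *Lamb1* was at 50.3 CPM in B10 (37.6 to 66.0) against 41.6 in *mdx* (36.1 to 47.6), and 57.3 in DBA (51.2 to 63.9) against 45.3 in D2-*mdx* (40.6 to 50.3). The control was the higher library in each pair, the reverse of the myogenic cells, although the B10 and *mdx* intervals overlapped. *Lamc1* was lower in the dystrophic library here too, at 169 against 220 CPM in *mdx* and B10 and at 138 against 197 in D2-*mdx* and DBA. *Nid1* was 163 CPM in both B10 and *mdx*, and 132 in D2-*mdx* (124 to 141) against 178 in DBA (167 to 189). In glial cell-like cells *Lamb1* was at 145 CPM in B10 (97.6 to 206.5, 23 cells) against 54.8 in *mdx* (46.2 to 64.5), and 92.1 in DBA (64.5 to 127.5, 30 cells) against 71.9 in D2-*mdx* (60.1 to 85.3). The DBA and D2-*mdx* intervals overlapped. In these glial cell-like cells Schwann cell markers were at 1432, 399, 750 and 587 CPM in B10, *mdx*, DBA and D2-*mdx*. That is the same order as *Lamb1*, and their part in it was not tested. The higher *Lamb1* of dystrophic libraries in myogenic cells was thus not seen in pericyte-like or glial cell-like cells. The difference between classes was not tested.

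Genetic background was compared as DBA over B10 and D2-*mdx* over *mdx*, which reuse the libraries of the disease comparisons. *Lamb1* was higher in DBA than in B10 (log2 ratio 1.11, 0.94 to 1.28), the 1 member of 9 past 2-fold, against 1.76% of all genes higher and 1.81% lower. It was lower in D2-*mdx* than in *mdx* (-0.26, -0.35 to -0.17). *Nid2* was at -0.17 between the controls and -0.88 (-1.07 to -0.68) between the dystrophic libraries, and *Lama4* at 0.40 and 1.24, the latter the 1 member past 2-fold, against 2.01% of all genes higher and 1.57% lower. The other 6 members lay between -0.52 and 0.43 in both comparisons. *Lama4*, under 10 CPM, lies outside these backgrounds. Of the 8 members with at least 10 CPM, none was past 2-fold between the dystrophic libraries.

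Single cells rarely held all chains of a trimer at this depth. After thinning to 3000 UMIs, 72.2 to 79.4% of myogenic cells held a UMI of any of the 9 genes. *Lama2* and *Lamc1* were found together in 12.5% of B10, 11.0% of *mdx*, 14.6% of DBA and 11.3% of D2-*mdx* cells. With *Lamb1* as the third chain the shares were 0.434% in B10 (0.261 to 0.677%) against 1.85% in *mdx* (1.49 to 2.27%), and 1.30% in DBA (0.905 to 1.80%) against 1.53% in D2-*mdx* (1.18 to 1.95%). With *Lamb2* they were 1.23%, 1.08%, 1.52% and 1.05%, with overlapping intervals.

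Other genes of the pathway were described from fixed lists, counting the genes that reached 10 CPM in either library of both pairs. Of the 5 other laminin chain genes, only *Lamc3*, which encodes γ3, passed that minimum. It was at 21.8 CPM in B10 against 2.03 in *mdx* (log2 ratio -3.43), and at 18.1 in DBA against 3.27 in D2-*mdx* (-2.47). Among MuSC-like cells alone these ratios were -2.48 and -1.71. *Lama3*, named after its values were seen because it passed the minimum in only 1 pair, was at 14.4 against 3.96 CPM and 8.80 against 2.38 CPM. Both genes were lower in each dystrophic library than in its control, as *Lamc1* was.

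Of 25 other basement membrane genes, 11 passed the minimum, and 2 were 2-fold higher and 3 lower in *mdx*, against 4.67% and 5.18% of all genes. In D2-*mdx* 1 was higher and 5 lower, against 5.89% and 5.92%. *Col18a1*, which encodes a collagen of vessel and muscle basement membranes, was higher in both pairs, at 32.9 against 72.9 CPM in B10 and *mdx* and at 38.0 against 84.5 in DBA and D2-*mdx*. Among MuSC-like cells alone its log2 ratios were 0.45 and 0.65, where those of all myogenic cells were 1.15 and 1.15, so neither stayed past 2-fold. The hemicentin genes *Hmcn1* and *Hmcn2* and *Frem1*, a gene of the epithelial basement membrane, were lower in both pairs. *Hmcn2* was at 424 against 135 CPM and at 680 against 186, *Frem1* at 46.0 against 11.9 and 43.5 against 9.74, and *Hmcn1* at 30.9 against 6.52 and 10.7 against 4.41. In MuSC-like cells these 3 genes stayed past 2-fold lower in both pairs, with log2 ratios from -2.01 to -1.09. The list's median log2 ratios were -0.33 and -0.40, beside the -0.03 and -0.07 of all genes.

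The next list held laminin receptor genes together with sarcoglycan genes of the dystrophin complex. Of its 6 genes that passed the minimum, 1 was 2-fold higher in each pair, against 4.67% and 5.89% of all genes, and none was 2-fold lower. The 1 gene was *Bcam*, which encodes an immunoglobulin-family receptor of the α5 chain, at 21.4 against 55.0 CPM in B10 and *mdx* and 15.0 against 39.8 in DBA and D2-*mdx*, with log2 ratios of 0.80 and 1.09 among MuSC-like cells alone. The lowest was *Sgca*, encoding α-sarcoglycan of the dystrophin complex, with log2 ratios of -0.85 in both pairs. *Dag1*, which encodes dystroglycan, was at 1521, 1345, 1569 and 1373 CPM in B10, *mdx*, DBA and D2-*mdx*. *Itga7*, whose protein was used in the sort, was at 62.3, 82.4, 80.3 and 75.6 CPM. Of the genes for enzymes that build the laminin-binding sugar of dystroglycan, 7 passed the minimum and none was 2-fold higher in either pair, with median log2 ratios of 0.11 and 0.08.

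Over 28 points, each a class of at least 50 cells in 1 library, Pearson's r of log2(CPM + 1) was computed between each member and 10614 genes. The points share libraries and depth, so r is a description. The gene most alike was *Ptprd* for *Lama2* (0.94), *Hoxb3os* for *Lama4* (0.95), *Pls3* for *Lama5* (0.88), *Sdk2* for *Lamb1* (0.81), *Oat* for *Lamb2* (0.93), *Zmynd11* for *Lamc1* (0.92), *Cers4* for *Nid1* (0.92), *Cyp2j6* for *Nid2* (0.83) and *Wwtr1* for *Hspg2* (0.82). Among pairs of members r was highest for *Lama4* with *Nid1* (0.81), *Lamb2* with *Nid1* (0.77) and *Lama5* with *Lamb2* (0.76), and lowest for *Lama2* with *Lama4* (-0.75).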

How the data were processed

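Satellite cells of 4 mouse strains were sequenced as 1 library each (10X Genomics 3′ V3.1). The authors processed reads with Cell Ranger 3.0.1 against mm10 and deposited, per library, unnormalised counts of UMIs per gene and barcode. The 9 members, the marker lists and the gene lists were chosen with earlier results of these data known.

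From these counts, barcodes of 1000 to 5000 genes with no more than 8% mitochondrial UMIs were kept, and scrublet doublets (scanpy 1.11.5; 91 to 356 per library) were removed. Libraries were integrated in Seurat 5.3.0 (R 4.3.3; 2000 features without the 9 members, 30 dimensions) and clustered at resolution 0.1, then 0.2 for myogenic cells. A cluster took the name with the highest mean marker score, if 3 or more of its markers were detected. The labels' replicate is the library, so n = 1 per strain and no test was run. UMIs were summed per class and library as CPM. Intervals are 95%, exact Poisson for levels, Clopper-Pearson for shares, and conditional binomial for ratios, and a floor is 3 counts. They assume independent molecules and cover counting error only. Thinning drew 3000 UMIs per cell without replacement, and 1 was added before logs for correlations (scipy 1.17.1). A call is a difference of at least 2-fold, and backgrounds hold the genes that reached 10 CPM in either library of a pair. Named from the pathway lists were genes past 2-fold in the same direction in both pairs, the highest and lowest of each list but the enzymes, *Dag1* and *Itga7*, besides *Lama3*. The scripts were tested on simulated counts. Alternatives comprised edgeR 4.0.16 and DESeq2 1.42.0 library sizes, cell filters, doublets kept, other cell sets, clusterings and folds. Single enzyme genes are not reported here. Proteins were not analysed here, and 3 of the 9 members had no promoter entry used here.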

Additional observations from a re-analysis of the deposited data

Results flagged for a closer look

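In myogenic cells *Lama2* and *Nid2* had opposite signs in the 2 disease comparisons. The log2 ratio of *mdx* over B10 exceeded that of D2-*mdx* over DBA by 0.26 for *Lama2* and by 0.70 for *Nid2*. With 1 library per strain the difference was not tested, and the D2-*mdx* over DBA intervals of both genes (-0.09 to 0.04 and -0.35 to 0.12) include 0.

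Barcodes outside the filters also held UMIs of the 9 genes. Those with over 5000 genes had a summed level of 823.5 CPM in B10 (41 barcodes), 327 in *mdx* (213), 572 for DBA (128) and 222 for D2-*mdx* (498), beside 554, 614, 647 and 533.5 CPM in kept cells. Barcodes with under 1000 genes had 379 CPM in B10 (356 to 403, 4739 barcodes) and 66.0 in *mdx* (30.2 to 125, 9 UMIs in 21 barcodes). In DBA such barcodes held 0 UMIs of these genes and in D2-*mdx* 3 UMIs. The B10 file thus held many more barcodes of few genes than the others, with *Lama2* at 103 CPM and *Lamc1* at 92.4 in them, against 113 and 204 in kept cells.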

How the results depend on the processing

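The median log2 ratio of the members for *mdx* over B10, 0.24 as reported, was 0.30 with DESeq2 size factors, 0.30 as a mean over cells, 0.35 in thinned cells, 0.084 with at least 500 genes and no upper limit, 0.42 in MuSC-like cells, 0.38 over all kept cells and 0.48 in the MuSC-like cluster 1. For D2-*mdx* over DBA, -0.12 as reported, it was -0.41 with the wider gene filter, and its sign was the opposite in thinned cells (0.084) and in the MuSC-like cluster 1 (0.082), so it shows no direction. The count of members past 2-fold in *mdx* over B10 was 2 and became 1 in the MuSC-like cluster 1, and 5 at 1.5-fold. In D2-*mdx* over DBA it was 2 and became 0 over all kept cells, 3 with TMM or DESeq2 scaling, where *Lamb1* was past 2-fold, 3 with the wider gene filter, where *Lamc1* was, and 4 at 1.5-fold. In DBA over B10 it was 1 and became 2 over all kept cells and in MuSC-like cluster 1, and in D2-*mdx* over *mdx* it went from 1 to 0 over all kept cells. No share of all genes past 1.5-fold was computed, so the counts at that fold have no background to be set against. The causes of these changes were not tested. The cluster 1 and rare-marker cell sets, and all alternatives of the background comparisons, were chosen after seeing the data.

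*Lamb1* stayed past 2-fold higher in *mdx* in 13 of 13 alternatives (1.72 to 2.50) and ranged from 0.28 to 1.04 in D2-*mdx*. *Lamc1* ranged from -0.88 to -0.36 and from -1.30 to -0.49. *Nid1* was lower in *mdx* in 12 of 13 (-0.90 to 0.63) and in D2-*mdx* in 13 of 13 (-1.25 to -0.33). *Lama4* ranged from 0.48 to 2.57 and from 0.35 to 2.60, and *Lama2* in D2-*mdx* kept its sign in 6 of 13. *Lamb2* kept its sign in 11 of 13 for *mdx* and 12 of 13 for D2-*mdx*, where *Nid2* kept it in 11 and *Hspg2* in 12. Among 234 values of single members 87 moved beyond their interval. Cells with 0 UMIs of all 48 type markers numbered 1 to 20 per library, too few for values. No paired analysis was possible because each strain had 1 library and no result came from a test. At these depths *Lama4* in myogenic cells rests on 23 to 139 UMIs.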
